A study of Drosophila melanogaster with 6 samples.

Results

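The genes described here are the cytoplasmic ribosomal protein genes of Drosophila melanogaster, taken as every gene whose FlyBase symbol starts with RpL (large subunit) or RpS (small subunit). Their mitochondrial counterparts, mRpL and mRpS, were kept apart. The rule gave 87 of the 17559 counted genes, of which 51 belong to the large and 36 to the small subunit. They lie on chromosome arms 2L (18), 2R (19), 3L (13), 3R (23) and 4 (1) and on X (13). A further 5 symbols of this form in the annotation, RpL19, RpL27A, RpL31, RpS10b and RpS12, matched no counted identifier and were not analysed here by name. RpS10b would have paired with RpS10a.

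RNA was read from neuroepithelial cells of the outer proliferation centre, the sheet of dividing cells in the larval optic lobe from which the medulla of the visual system arises. There were 2 groups of 3 libraries, D1 to D3 from the dorsal and V1 to V3 from the ventral compartment, with values given below in this order, and the comparison between them asks which genes differ along this axis. All 6 libraries share the remaining conditions in the labels: late second-instar (L2) females raised at 25 °C, GFP-labelled cells drawn by hand with a glass micropipette, and cells of 3 to 4 brains pooled for each library. The labels name no driver or genotype for the GFP and give no dates.

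A ribosome is built from ribosomal RNA and one set of proteins for each subunit, so that growing and dividing cells need these proteins in near equal numbers. In flies, loss of 1 copy of many of these genes gives the Minute phenotype of slow development and thin bristles, and cells short of a ribosomal protein are lost in competition with normal neighbours. Several of the proteins are encoded by a pair of genes, and the second gene of a pair is often used mainly in the germ line.

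Depth ran from 21114019 to 27815885 counted reads per library, and the ribosomal protein genes held between 2173295 and 2945543 of them. The Spalt gene salm, which marks the dorsal compartment, had 980 to 1539 reads in dorsal and 1 to 11 in ventral libraries, and disco, a ventral marker, had 16 to 94 and 741 to 1620, so both went with the labels. The dosage compensation RNA roX2, made mainly in males, had 16000, 7580 and 0 reads in D1, D2 and D3 and 6888, 62 and 5680 in V1, V2 and V3, against the female label of several libraries. Of 11 neuroepithelial markers with a row, none was at 0 in all libraries, and their summed level was 1200 to 1866 CPM (read counts put on a common total by edgeR's TMM factors) in dorsal and 1219 to 1724 in ventral libraries. The largest part of the neuroepithelial sum was hth, with means of 730 (dorsal) and 766 CPM (ventral), so the sum says little of the other markers. Markers of other cells were present too. The summed level of 9 neuroblast genes was 1073 to 1604 CPM in dorsal and 1253 to 1888 in ventral libraries, of 11 neuron genes 624 to 1024 and 720 to 1385, of 9 glia genes 1196 to 1249 and 1011 to 1403, and of 8 genes of other tissues 4.25 to 8.11 and 4.08 to 11.5. The neuron sum was mostly elav and fne, with means of 409 and 279 CPM in dorsal and 397 and 343 CPM in ventral libraries. Most of the glia sum came from nrv2, with means of 1023 (dorsal) and 1039 CPM (ventral). Eaat1 followed, with means of 156 (dorsal) and 128 CPM (ventral). Group means of the other tested glia genes ran from 0.724 (repo, dorsal) to 23.5 CPM (loco, ventral). The sum therefore says little of the other glia genes. Whether cells of these other types add to the values below was not tested. In bulk RNA, a group with fewer cells of a type cannot be told apart from one with less RNA per cell.

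Ribosomal protein genes took about the same part of the RNA on both sides. The 87 genes of the set held 11.6%, 10.3% and 10.4% of counted reads in D1, D2 and D3, and 11.2%, 10.3% and 11.6% in V1, V2 and V3. D1 and V3 were the highest and D2 the lowest, and the groups overlapped. The means were 10.8% ± 0.72 in dorsal and 11.0% ± 0.66 in ventral libraries (SD, n = 3). Wilson 95% intervals reach no more than 0.0130 points to either side of a library's share, and cover counting error only. D3 and V2, the libraries lowest in roX2, stood at 10.4% and 10.3%. Per length, in TPM (read counts per base of exon on a common total), the genes made up 16.6 to 20.2% of each library. The large subunit took 6.10 to 6.90% of reads and the small subunit 4.10 to 4.70%.

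**Figure D1:**
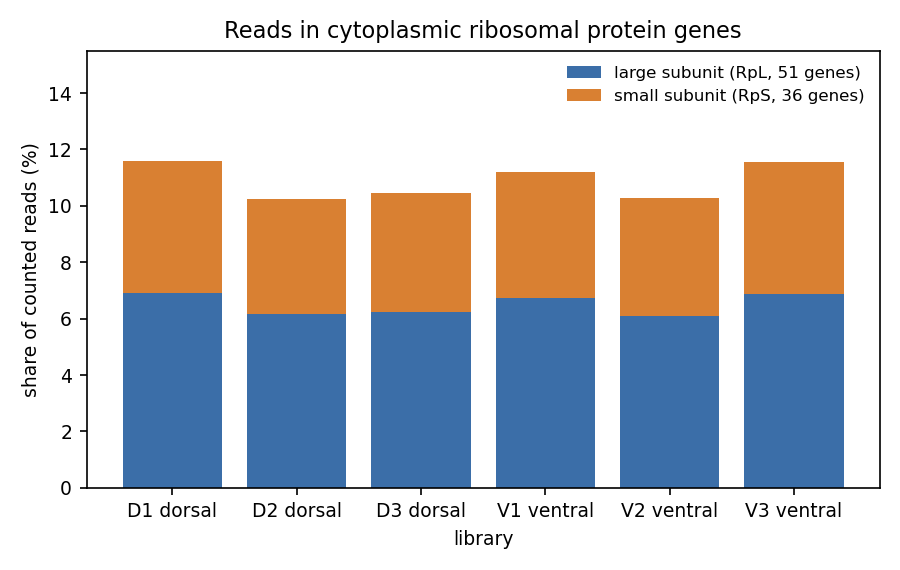
Share of counted reads (%) in the 51 large and 36 small subunit genes, stacked, for each of the 6 libraries. The bars end between 10.3% and 11.6%, and the dorsal and ventral libraries overlap.

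No ribosomal protein gene was called as different between dorsal and ventral cells. Enough reads for a test were found in 81 genes, 47 of the large and 34 of the small subunit. In edgeR's quasi-likelihood test 0 of the 81 passed an adjusted p of 0.05, where 0.0919% of all 8707 genes did (0.023% toward dorsal and 0.0689% toward ventral). DESeq2 also called 0, against 0.507% of its genes. At an unadjusted p under 0.05 the edgeR count was again 0, against 3.2% of all genes. The smallest p was 0.274, with an adjusted p of 1.00 (edgeR). A missed threshold does not show equal levels, so the intervals matter. For the 78 genes of at least 100 CPM, log2 fold changes (dorsal minus ventral) ran from -0.17 to 0.06, and every 95% interval lay within -0.52 and 0.57, a change of at most 1.48-fold. The labels do not say that the libraries are from separate days or crosses, so these p-values measure the spread between pooled samples only.

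Small differences lay mostly on one side. Fold changes were below 0, that is higher in ventral libraries, in 65 of 81 genes (80.2%, against 49.7% of all tested genes). They were below 0 in 34 of 47 large subunit genes (72.3%) and 31 of 34 small subunit genes (91.2%), and whether the subunits differ in this was not tested. The median log2 fold change was -0.05, against 0.00 over all tested genes. The count moved with single libraries and was 48 without D2, 50 without D3, 52 without V1, 54 without V3, 76 without V2 and 77 without D1. With library size alone as scaling it was 54. It was 76 with V1 and V2 both left out.

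**Figure D2:**
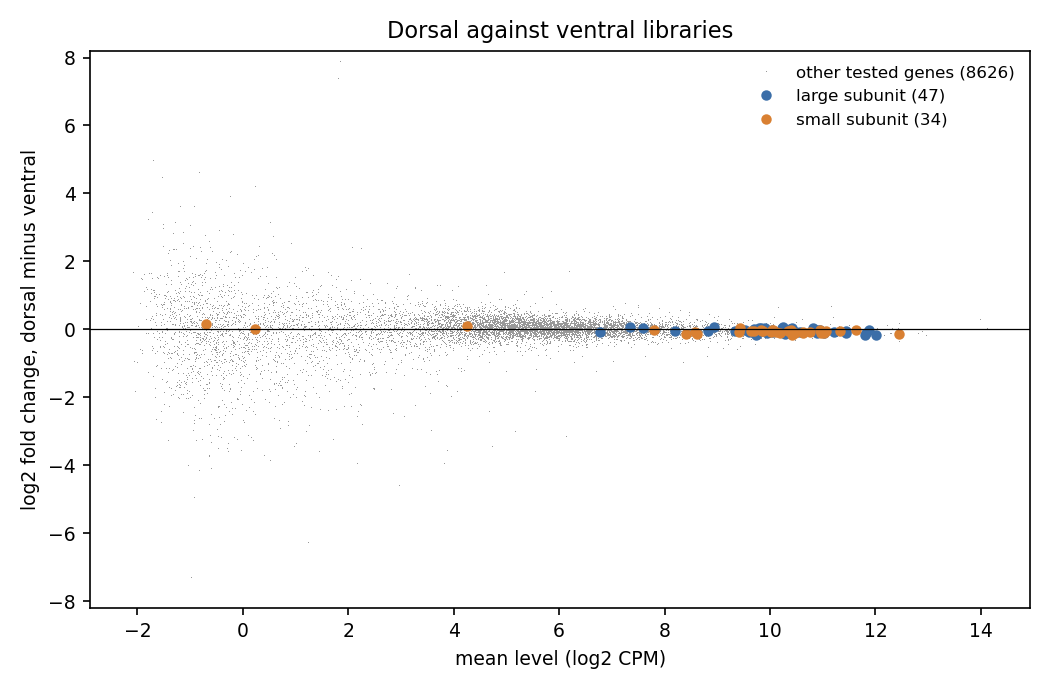
Log2 fold change, dorsal minus ventral (vertical axis), against mean level in log2 CPM (horizontal axis) for 8707 tested genes, with 47 large subunit genes in blue and 34 small subunit genes in orange. The abundant ribosomal protein genes sit at the right, between -0.17 and 0.06.

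Of the 5 genes with the smallest p toward ventral, 4 belong to the large subunit. RpL38 (chromosome arm 2R), a small protein at the surface of the large subunit, stood at 3484, 4226 and 3966 CPM in D1, D2 and D3 and 3659, 4763 and 4712 CPM in V1, V2 and V3. D1 and V1 were the low libraries of their groups, and the groups overlapped. Its log2 fold change was -0.17 ± 0.15 (SE), with an adjusted p of 1.00 in edgeR. RpL10 (FBgn0024733, 3L:23093190-23095471, minus strand), which in yeast joins the large subunit at a late step of its assembly, stood at 3705, 2979 and 3482 CPM in D1, D2 and D3 and 3177, 4360 and 3923 CPM in V1, V2 and V3. V2 and V3 lay above all dorsal libraries and V1 among them, with a log2 fold change of -0.17 ± 0.15. Single libraries moved both values: with each left out in turn RpL38 ran from -0.29 to -0.10 and RpL10 from -0.29 to -0.07.

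RpL37A (FBgn0261608, 2L:5070957-5072055, plus strand), a zinc-binding protein of the large subunit, was the 1 tested gene (1.23%) whose groups did not overlap with ventral above, where 3.17% of all tested genes did so. It stood at 1216, 1122 and 1201 CPM in D1, D2 and D3 and 1272, 1274 and 1371 CPM in V1, V2 and V3. Its means were 1179 ± 50.3 and 1306 ± 56.8 CPM (SD, n = 3), with a log2 fold change of -0.15 ± 0.13. Part of its exons, 153 bases, overlaps an antisense RNA on the other strand, and no source used here says whether the counting used strand. None of the 81 had all dorsal libraries above all ventral ones, against 4.09% of all tested genes. RpL30 and the small subunit gene RpS15Aa, with log2 fold changes of -0.16 ± 0.14 and -0.16 ± 0.15, overlapped between groups. RpL30 was at -0.10 without D2 and -0.23 without D1, and RpS15Aa at -0.12 and -0.28.

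The genes with the smallest p toward dorsal had log2 fold changes of 0.05 to 0.09, and RpS19b, at the upper end, is described with its pair. RpL5 (FBgn0064225, 2L:22532279-22536884, minus strand), which carries the 5S ribosomal RNA into the large subunit, stood at 1924, 1803 and 1802 CPM in D1, D2 and D3 and 1623, 1876 and 1835 CPM in V1, V2 and V3. V1 was the low library, and without it the log2 fold change went from 0.05 ± 0.13 to -0.01. RpL24-like, whose yeast counterpart acts in assembly of the large subunit rather than in the finished ribosome, stood at 168, 167 and 163 CPM in D1, D2 and D3 and 168, 142 and 168 CPM in V1, V2 and V3. Here V2 was the low one, and the log2 fold change was 0.06 ± 0.16 with it and -0.03 without it. RpL13 and RpL23A, both of the large subunit, had 0.05 ± 0.16 and 0.05 ± 0.18, and each was below 0 without D1 (-0.05 and -0.04) or V2 (-0.07 and -0.11). RpL23A shares 639 exon bases with other genes, among them the snoRNA host Uhg7.

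Levels of the genes themselves were high but far from equal. Over the 79 genes of at least 10 CPM the median was 1694.5 TPM, with quartiles of 1038 and 2905, against a median of 17.4 TPM over all tested genes with a length. Ribosomal protein genes made up 45 of the 100 genes highest in TPM and 11 of the highest 20. Between the 78 genes of at least 100 CPM the highest and the lowest differed 75.1-fold in TPM. The SD of log2 TPM was 1.32 between the 79 genes, and the median SD of one gene between libraries was 0.17. Shorter genes tended to have higher TPM (Spearman rho with coding length -0.42 across the 79 genes, which share libraries and their lengths as divisor).

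In the large subunit RpL41, which encodes a peptide of only 25 residues, was highest. Its level was 12222, 11226 and 12315 TPM in D1, D2 and D3 and 12869, 11699 and 13644 TPM in V1, V2 and V3. It lay above every library of the next gene, RpL40, which is made as a fusion with ubiquitin. RpL40 (FBgn0003941, 2L:4227699-4228561, plus strand) had 8439, 7516 and 8074 TPM in D1, D2 and D3 and 8071, 8197 and 8128 TPM in V1, V2 and V3. RpL39, a short protein of the exit tunnel, had 6834 to 8275 TPM and overlapped RpL40. Then came RpLP1, an acidic protein of the stalk that recruits elongation factors, with a mean of 6710 TPM.

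In the small subunit RpS3A (FBgn0017545, 4:65225-67207, minus strand), the 1 gene of the set on chromosome 4, led. It had 6141, 5104 and 5535 TPM in D1, D2 and D3 and 5569, 6472 and 6299 TPM in V1, V2 and V3. RpS25 (FBgn0086472, 3R:11215028-11216287, minus strand), which is needed for initiation at some viral internal entry sites, followed with 5273, 5036 and 5283 TPM in D1, D2 and D3 and 5066, 5114 and 5425 TPM in V1, V2 and V3. These genes overlapped each other, whereas RpS25 lay above RpLP2, the next gene of either subunit, in every library. RpS24 was the third of the small subunit, at 3270 to 4166 TPM. With coding length as the divisor the order was another: RpS29 led at a mean of 9374 TPM, against 2905 with the exon union, followed by RpS25 at 6838 and RpS3A at 5281.

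Of the 80 pairs of neighbours in the order of mean TPM, 5 did not overlap over the 6 libraries, and the order is otherwise not resolved beyond the spread. The low end held mainly genes of pairs: RpLP0-like (mean 164 TPM), RpL34b (295) and RpL24-like (297) in the large subunit, and RpS19b (41.2) in the small. RpS5b (1.71) and RpS10a (1.46) were lower again, and the 6 untested genes stood below these. RpL22, RpS14b, RpS9 and RpL3 stood between 383 and 598 TPM. Ranks moved with the length used, by 10 places or more in 32 of the 87 genes over the exon union, the longest and shortest transcript and the coding sequence. RpS26 moved from 60th to 18th and RpS28b from 45th to 12th between exon union and coding length. RpL5 has a long exon union of 3835 bases and was 68th with 665 TPM, and with its shortest annotated transcript it was 39th with 1956 TPM. RpL38 was 7th with the exon union and 1st with the shortest transcript.

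**Figure D3:**
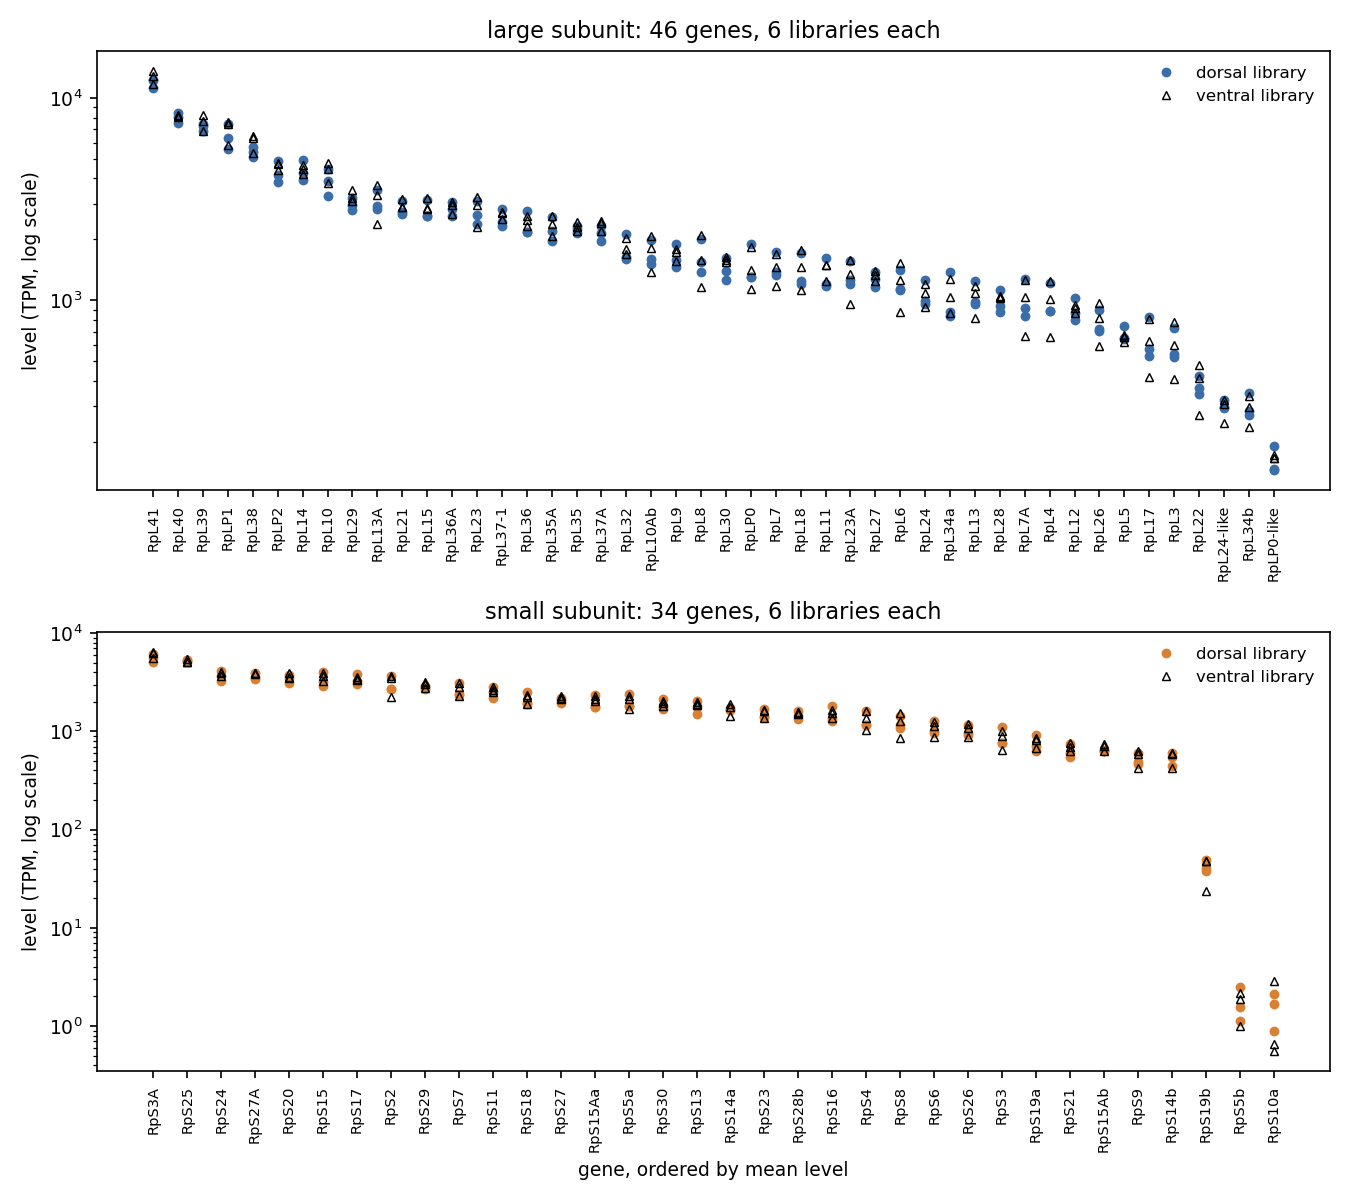
Level of the tested genes in TPM (log axis), 1 large subunit gene left out, in the 3 dorsal (filled circles) and 3 ventral (open triangles) libraries, ordered by mean within each subunit. RpL41 leads at 12329 TPM on average, and RpS19b, RpS5b and RpS10a lie far below the rest.

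The steadiest genes across all 6 libraries were RpS25, RpL40 and RpL35, with coefficients of variation in TPM of 2.92%, 3.77% and 4.25%. RpL32, known as rp49 and much used as a reference gene in fly quantitative PCR, varied by 11.8%, close to the median of the 79 genes. It stood at 1136, 937 and 943 CPM in D1, D2 and D3 and 1097, 998 and 1014 CPM in V1, V2 and V3, with a log2 fold change of -0.04 ± 0.14. Within groups the median SD of log2 CPM was 0.14 for the ribosomal protein genes, 0.23 for 1799 other tested genes of at least 100 CPM and 0.35 over all tested genes. These sets were not matched on level, and the part of level in the difference was not tested.

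The summed levels of the subunit genes in the set kept a narrow range of ratios. The sums run over 51 large and 36 small subunit genes, so the ratio depends on gene number as well as on level. The sums leave out RpL19, RpL27A, RpL31, RpS10b and RpS12, which matched no counted identifier, and sta, a small subunit gene named otherwise. Reads per kilobase summed over the large subunit were 1.72, 1.77 and 1.76 times those summed over the small subunit in D1, D2 and D3, and 1.78, 1.71 and 1.74 times in V1, V2 and V3. The groups overlapped, with means of 1.75 ± 0.027 in dorsal and 1.75 ± 0.035 in ventral libraries (SD, n = 3). Taking the median gene of each subunit instead, the ratio was 0.983, 0.922 and 0.817 in D1, D2 and D3 and 1.00, 0.860 and 0.837 in V1, V2 and V3, a wider spread in which the groups also overlapped, with large subunit medians of 1379 to 1893 TPM and small subunit medians of 1587 to 1946 TPM.

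Some pairs used 1 gene almost alone, and others used both. Of 14 pairs looked for, 13 could be formed. In the pair of RpL34, RpL34a gave 79.9%, 75.6% and 75.5% of the pair's reads per kilobase in D1, D2 and D3 and 79.1%, 78.5% and 77.8% in V1, V2 and V3. D1 was highest and D2 and D3 lowest, with means of 77.0% ± 2.5 and 78.4% ± 0.66 (SD, n = 3). RpL34b, the weaker gene, had a log2 fold change of 0.04 ± 0.17, and RpL34a had -0.05 ± 0.20.

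RpS14a and RpS14b are tandem copies on X that encode the same protein. RpS14b (FBgn0004404, X:7934898-7935792, plus strand) gave 25.8%, 24.7% and 21.0% of the pair in D1, D2 and D3 and 24.7%, 22.7% and 24.2% in V1, V2 and V3. The groups overlapped, and how the authors' counting divided reads of so close a pair was not tested. RpS15Ab, an intronless copy of RpS15Aa, gave 21.2%, 27.0% and 26.2% in D1, D2 and D3 and 23.3%, 25.0% and 24.2% in V1, V2 and V3, with the dorsal libraries on both sides of the ventral ones.

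Related genes of lower level were RpL24-like beside RpL24, RpLP0-like beside RpLP0, and RpS19b beside RpS19a. RpL24-like gave 20.5 to 23.6% of its pair, and a mean of 12.2% with coding length in place of the exon union. RpLP0-like, whose yeast counterpart acts in assembly of the large subunit, gave 8.59 to 12.8%, with both ends in ventral libraries. RpS19b (FBgn0039129, 3R:23932729-23933530, minus strand), best known from the germ line, had 571, 526 and 513 reads in D1, D2 and D3 and 283, 480 and 548 in V1, V2 and V3. It gave 5.08%, 5.73% and 5.45% of its pair in D1, D2 and D3 and 2.70%, 6.51% and 5.48% in V1, V2 and V3. V1 held less than any other library, and without it the log2 fold change moved from 0.09 ± 0.32 to -0.20. The mean share of 5.16% depended on the length and was 2.81% with unscaled reads, 2.65% with the shortest transcript and 2.83% with the coding length.

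**Figure D4:**
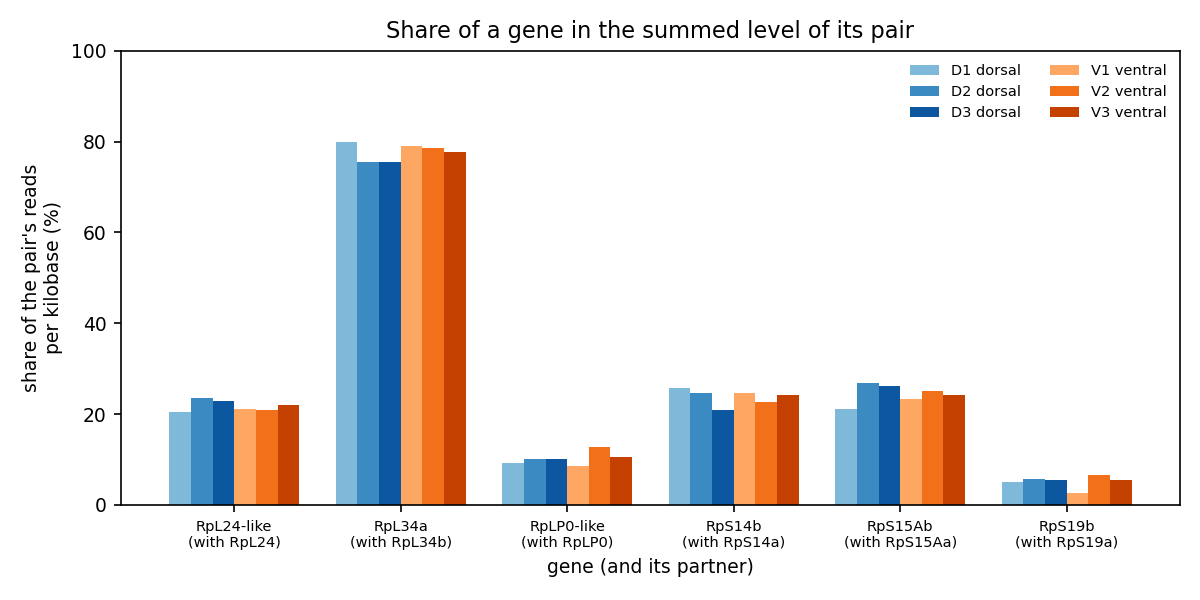
Share (%) of the summed reads per kilobase of a pair that came from the gene named first, for the 6 pairs whose named gene had a mean of at least 10 TPM, in each library. RpL34a gives between 75.5% and 79.9%, RpS19b between 2.70% and 6.51%, and dorsal and ventral bars overlap in each pair.

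The remaining pairs had a nearly silent gene. RpS5b, used in the ovary, had 41, 22 and 28 reads in D1, D2 and D3 and 17, 27 and 36 in V1, V2 and V3, or 0.0846% of its pair with RpS5a, and its log2 fold change was -0.00 ± 0.81. RpS10a, whose partner was not analysed here by name, had 22, 11 and 19 reads in D1, D2 and D3 and 6, 6 and 30 in V1, V2 and V3, with 0.16 ± 0.99. At these depths the intervals, -1.81 to 1.81 and -2.04 to 2.36, are too wide to show a moderate difference. The 6 untested genes were lower still. RpL22-like, a testis gene, had 0, 0 and 7 reads in D1, D2 and D3 and 2, 0 and 2 in V1, V2 and V3. RpL37-2 had at most 7 reads in a library, RpS28a at most 5, and RpS28-like had 2 reads in 1 library. RpL10Aa had 2, 2 and 1 reads in D1, D2 and D3 and 0 in each ventral library, all under the 3 reads that a count of 0 allows, so nothing can be said of its direction. RpL7-like had 0 reads in all libraries, and it shares 1771 exon bases with CG34164 on the same strand. Of the 6 genes of the set without an intron, RpLP2, RpS15Ab and RpS10a were tested, and RpL10Aa, RpL37-2 and RpS28a were too low.

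Shifts shared by many of the genes did not follow the groups. Compared with each gene's own mean log2 CPM over the 6 libraries, 65 of the 79 genes were above it in D1, 6 in D2 and 10 in D3. In V1, V2 and V3 the counts were 51, 33 and 77. D1 and V3, in different groups, were thus the high libraries. The median deviations were 0.11, -0.11 and -0.08 in D1, D2 and D3 and 0.04, -0.04 and 0.09 in V1, V2 and V3. The median over all tested genes stayed between -0.01 and 0.02.

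Longer and shorter genes of the set differed in how they moved, a pattern chosen after the values were seen and given without a test. In V2, 31 of 39 genes with a coding length over 465 bases were below their own mean, and 15 of 40 shorter ones were. The longer genes had median deviations of 0.17 in D1, 0.15 in V1 and -0.23 in V2, and the shorter ones 0.07, 0.00 and 0.02. RpL7A, RpL17, RpL4 and RpL3 were furthest down in V2, at -0.49, -0.49, -0.48 and -0.45. RpL3, which lies by the peptidyl transferase centre, had 1098, 856 and 876 CPM in D1, D2 and D3 and 1181, 677 and 956 CPM in V1, V2 and V3. Its ventral libraries were the highest and the lowest of all 6, and its log2 fold change was 0.01 ± 0.21.

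Spearman's rho between coding length and deviation across the 79 genes was 0.66, 0.16 and -0.46 in D1, D2 and D3 and 0.53, -0.56 and -0.28 in V1, V2 and V3. Over 2530 other genes in the same range of length it was 0.20, 0.03 and 0.03 in D1, D2 and D3 and 0.30, -0.38 and -0.13 in V1, V2 and V3. Genes in one library share its depth and preparation, so these are descriptions of libraries. The coefficient of variation in TPM had a median of 14.9% in the longer and 8.85% in the shorter genes. The part of library preparation or RNA quality in this was not tested.

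**Figure D5:**
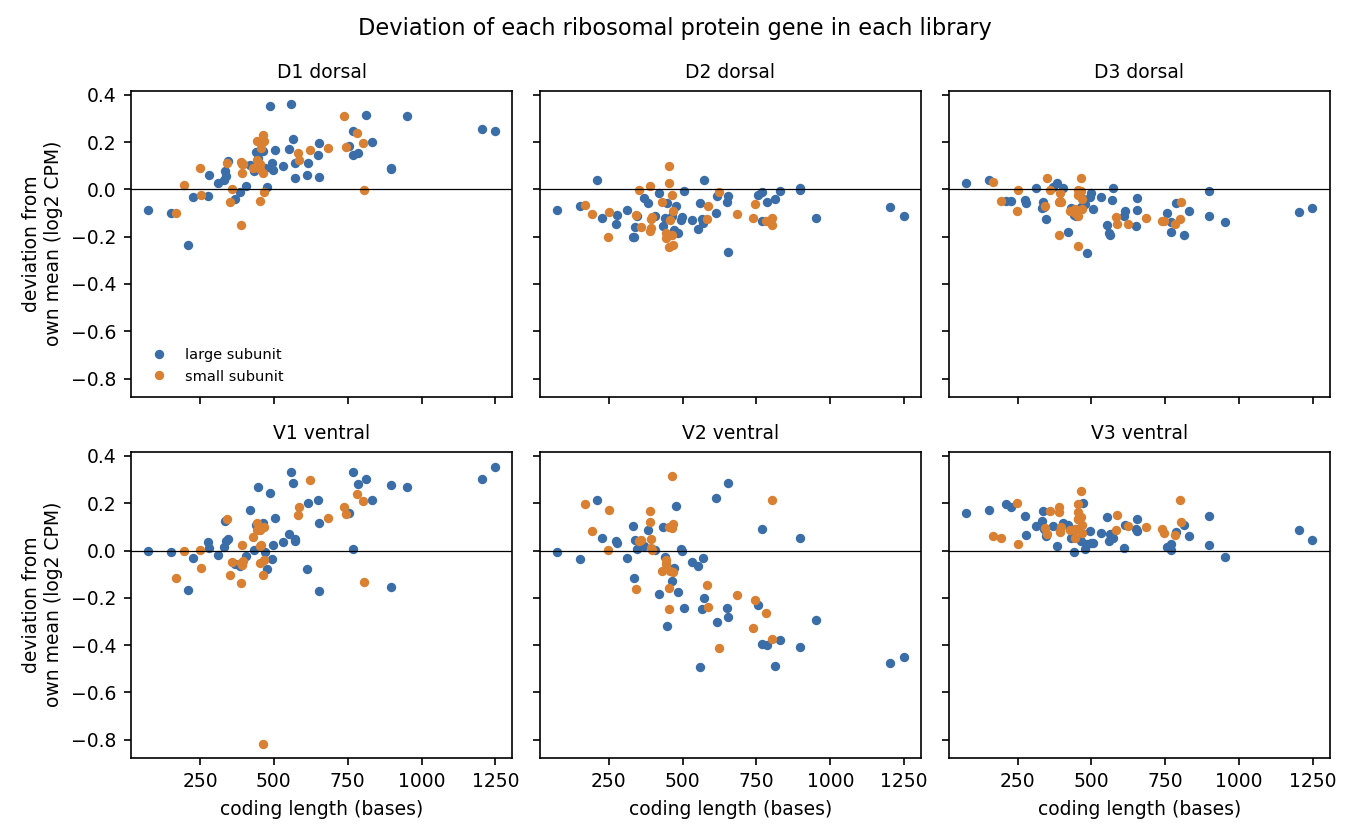
Deviation of each of 79 genes from its own mean over the libraries (log2 CPM, vertical axis) against coding length in bases (horizontal axis), in 1 panel for each library. Longer genes lie high in D1 and V1 and low in V2, and the lone low point in V1 is RpS19b.

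Some genes of either length class lay high in V2. There the highest deviations were those of RpS19b (0.31), RpL10 (0.29), RpS3A (0.22), RpL15 (0.22), RpL38 (0.21), RpS29 (0.20) and RpL21 (0.19). RpS3A lies on chromosome 4, where 86 other genes had a median deviation of 0.54 in V2 and -0.47 in V1, with RpS3A at -0.13 in the latter. RpL5, RpL15 and RpL21 lie within 2 Mb of the centromere side of an arm. Their median was 0.19 in V2 and -0.08 in V1, and that of 102 other genes there was 0.36 and -0.22. The 13 genes of the set on X had median deviations of 0.12, -0.06 and -0.12 in D1, D2 and D3 and 0.09, -0.16 and 0.10 in V1, V2 and V3. In D3 and V2, the libraries lowest in roX2, the 13 genes of the set on 3L had medians of -0.11 and -0.24. The 19 tested at 10 CPM or more on 3R had -0.06 and -0.15. On 2L the 16 such genes had -0.06 and -0.01, and on 2R the 17 such genes had -0.05 and -0.01. Over 1477 other X genes the medians in those libraries were 0.04 and -0.01. Any link of these values to roX2 was not tested.

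Other lists of ribosome components and helpers, read from the same fit, held no called gene, where 0.0919% of all tested genes were called and 49.7% were higher in ventral libraries. At that share a list of this size is likely to hold none, so the counts say little of the lists. A list meant for ribosome components named otherwise had 4 genes, all tested. Of these, sta encodes a further small subunit protein, and Rack1 is a signalling scaffold on the small subunit. Ubi-p5E and Ubi-p63E are ubiquitin genes and encode no ribosomal protein, so the list is only partly one of ribosome components. Over the 4 genes the median log2 fold change was 0.04, with 4 of 4 higher in dorsal libraries, though sta was at only 0.0012 ± 0.18. Rack1 had 744, 572 and 579 CPM in D1, D2 and D3 and 637, 555 and 639 CPM in V1, V2 and V3. Of 71 mitochondrial ribosomal protein genes 70 were tested and 0 called, with 26 higher in dorsal and 44 in ventral libraries and a median of -0.03. mRpL37 and mRpL51 had the smallest p among them, at -0.24 ± 0.17 and -0.25 ± 0.18, the latter at -0.39 without V1. The mitochondrial set held 0.660 to 0.692% of reads in dorsal and 0.636 to 0.738% in ventral libraries.

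Of 36 translation factor genes 0 were called, 10 were higher in dorsal and 26 in ventral libraries, beside the all-gene shares of 0.0919% called and 49.7% higher in ventral, and the median was -0.06. eEF1alpha2, a translation elongation factor, had 5.38, 3.65 and 4.93 CPM in D1, D2 and D3 and 70.5, 6.63 and 6.92 CPM in V1, V2 and V3. V2 and V3 lay just above the dorsal libraries and V1 far above all others. The log2 fold change of -2.59 ± 0.83 did not pass (adjusted p = 1.00, edgeR), and it was -0.55 without V1. The neuron gene nSyb, a synaptic vesicle protein, was highest in the same library, with 39.0 CPM there and 0.618 to 6.63 CPM in the others. Together the 11 neuron genes were highest in V2 instead, at 1385 CPM. They stood at 812 CPM in V1, below D1 (906 CPM) and D2 (1024 CPM). Most of these sums came from elav and fne, at 583 and 512 CPM in V2 and 274 and 272 CPM in V1. The sums therefore say little of the lower neuron genes, nSyb among them. eIF4H1, a cofactor of the eIF4A helicase, had -0.30 ± 0.18, and -0.14 without V2.

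Of 30 ribosome biogenesis genes 0 were called, 7 were higher in dorsal and 23 in ventral libraries, beside the same all-gene shares of 0.0919% and 49.7%, and the median was -0.08. wcd, which acts in the processing of small subunit RNA, had 43.3, 36.5 and 39.5 CPM in D1, D2 and D3 and 57.8, 49.4 and 53.5 CPM in V1, V2 and V3. All ventral libraries were above all dorsal ones, with a log2 fold change of -0.43 ± 0.19 and an adjusted p of 1.00 (edgeR). Tif-IA, the factor that brings RNA polymerase I to ribosomal DNA, had -0.35 ± 0.21, with -0.55 without V1 and -0.12 without V2. Beside those same all-gene shares, 0 of 15 genes of TOR and insulin signalling and of ribosome stress were called. Among the 15, 10 were higher in dorsal and 5 in ventral libraries, and the median was 0.11. The smallest p there were those of foxo (-0.37 ± 0.23), the transcription factor held back by insulin, and gig (-0.50 ± 0.32), the fly Tsc2 that restrains TOR. Without D1 foxo had -0.60, and without V1 gig had -0.20.

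The marker lists held no called gene either, where 0.0919% of all tested genes were called and 49.7% were higher in ventral libraries. At that share lists this small are likely to hold none. Of 10 tested neuroepithelial genes 7 had higher dorsal values, crb with 0.48 ± 0.31 and E(spl)m7-HLH with 0.49 ± 0.30 among them. Without D1 these were 0.25 and 0.17, and without V1 0.32 and 0.80. Of 9 neuroblast genes 3 had higher dorsal values, with dpn at -0.67 ± 0.38 and pros at 0.57 ± 0.29. dpn had -0.24 without V1 and -0.44 without D3, and pros 0.17 without D2. Of 11 neuron genes 9 had higher ventral values, with nrv3 at -2.43 ± 0.61 (adjusted p = 0.990, edgeR). The groups of nrv3 overlapped, with 6.98 to 17.5 CPM in dorsal libraries and 72.2, 124 and 16.8 CPM in V1, V2 and V3. The calcium channel cac had higher dorsal values, at 1.65 ± 0.27 (adjusted p = 0.0960, edgeR). Of the 11, 5 had an unadjusted p under 0.05, against 3.2% of all genes. Of 8 glia genes 3 and of 3 genes of other tissues 1 had higher dorsal values, with moody at 0.87 ± 0.57, Eaat1 at 0.28 ± 0.20, Act57B at -0.69 ± 0.74 and Mhc at 0.56 ± 0.79. With each library left out in turn, these ran from 0.54 to 1.51, 0.19 to 0.44, -1.18 to -0.14 and 0.37 to 0.64.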

How the data were processed

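Polyadenylated RNA of 3 dorsal and 3 ventral libraries was used, grouped by title. Per the labels' protocols, cDNA came from the SMART-Seq v4 kit and sequencing libraries from Nextera XT. The deposited counts are whole reads per gene, not normalized by the authors. Per the submitters' processing notes, the tools were Trimmomatic, featureCounts and DESeq2, and the builds named are dm6 and BDGP6. Neither the aligner nor tool versions nor the strand setting was given in the sources used here. A second deposited table holds a signal made by the authors, the same counts divided by 1 factor per library, and served as an alternative.

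Gene identifiers were looked up in Ensembl's BDGP6 annotation: 17252 of 17559 had a symbol, and the 307 others, with 6.65 to 7.57% of reads, were kept in the fit. Genes were tested with edgeR 4.0.16 under R 4.3.3, after filterByExpr and with TMM factors, by a robust quasi-likelihood fit on group alone, and p-values were adjusted by Benjamini-Hochberg over 8707 genes with a threshold of 0.05. The script was tested on simulated data. CPM uses TMM-scaled totals, deviations use log2 CPM with a prior count of 2, and TPM was computed from counts and exon union lengths. Shares, ratios and levels have no test. Intervals and floors (3 reads for a count of 0) cover only counting error, because these reads carry no molecular identifiers and are not independent molecules. Of the 87 genes, 30 share exon bases with another gene, which the counting may treat differently with or without strand.

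The genes and lists were chosen with earlier results of these data known. Named genes were those past the threshold, the 5 with the smallest p in each direction, the 3 highest and 3 lowest in TPM of each subunit, both genes of each pair, those whose groups do not overlap, the 3 with the largest range in log2 CPM, and 2 genes of each other list by smallest p. Others were named after their values were seen. List symbols without a match (eEF1alpha1, eEF5, Tor, S6k, InR, Larp, tom, Cg25C and btl) were not analysed here. Alternatives were scaling by library size alone or by RLE or upper-quartile factors, DESeq2 1.42.0, limma 3.58.1 (voom with sample weights, and trend on the normalized counts), other filters, a threshold of 0.10, the replicate number as a block, each library left out, ventral replicates 1 and 2 left out together, and other lengths. The shortest transcript and the coding length were added after seeing the data. One large subunit gene is counted in all sums but not reported here by name.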

Additional observations from a re-analysis of the deposited data

How the results depend on the processing

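No ribosomal protein gene was called under any of the alternatives run for the test. Over all genes 0.0919% were called in the main fit and 0.507% with DESeq2. At such shares a set of 81 genes is likely to hold none, so these counts say little of the set. Same-numbered dorsal and ventral libraries had correlations of 0.003, -0.038 and 0.059 in their deviations from the group mean over all tested genes. The labels do not say whether same-numbered libraries were prepared together, and this was not tested. In a fit with a replicate block 63 of 81 genes had a value below 0. Over all genes, the 2 calls toward dorsal became 4 with no filter and 14 with DESeq2, and the 6 toward ventral became 35 with DESeq2 and 1 without ventral replicates 1 and 2, which leaves 1 ventral library assumed to vary like the dorsal ones. Leaving out each library gave between 2 (without dorsal replicate 1) and 6 calls toward ventral. With the 10 most read other genes left out, the share of reads rose to 11.9% in dorsal and 12.2% in ventral libraries, since the total is smaller. The ratio of large to small subunit of 1.75 became 1.48 with unscaled reads, 1.64 with the shortest transcript, 1.83 with the coding length and 0.904 with medians. With unscaled reads, the shortest transcript and the coding length in turn, RpL24-like gave 14.6, 14.8 and 12.2% of its pair, RpL34a 70.1, 69.6 and 70.8% (74.4% with the longest transcript), RpS14b 17.6, 19.6 and 17.6%, RpS15Ab 19.9, 18.8 and 19.9%, and RpS19b 2.81, 2.65 and 2.83%. RpLP0-like gave 7.50% with unscaled reads. The divisor makes these shifts. Values near 0 changed sign, and the cause was not tested. With voom they were -0.027 for RpL13, -0.0023 for RpL23A, -0.052 for RpS19b, -0.42 for RpS10a and -0.025 for Rack1. Without ventral replicates 1 and 2 they were -0.019 for RpL24-like, -0.051 for RpL13, -0.023 for RpL23A, -0.16 for RpS19b, -0.91 for RpS10a, -0.017 for Rack1 and 0.32 for dpn. RpS5b was at 0.034 with library size alone, 0.0082 with no filter, 0.0048 with the replicate block and 0.0057 with limma-trend. With each library left out in turn, values ran from -0.012 to 0.085 for RpL5, -0.026 to 0.099 for RpL24-like, -0.075 to 0.12 for RpL13, -0.11 to 0.18 for RpL23A, -0.20 to 0.27 for RpS19b, -0.23 to 1.31 for RpS10a, -0.32 to 0.22 for RpS5b and -0.091 to 0.12 for Rack1. cac passed with no filter (adjusted p = 0.000315, edgeR), with DESeq2 (1.4e-05) and at a threshold of 0.10, and its adjusted p reached 0.851 (edgeR) without ventral replicates 1 and 2. Low read numbers limit RpS5b, RpS10a and 5 of the 6 untested genes. The count of 0 for RpL7-like, which shares 1771 of its 1793 exon bases with CG34164 on the same strand, may depend on how reads were assigned, which was not tested.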
